A study of Homo sapiens with 9 samples.

Results

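The 9 long non-coding RNAs NORAD, OIP5-AS1, MALAT1, NEAT1, KCNQ1OT1, TUG1, PVT1, CRNDE and H19 were followed through an RNA immunoprecipitation (RIP-seq) experiment on CCR4-NOT, the main cytoplasmic complex that shortens poly(A) tails. They were chosen by name among the 30956 genes of the deposited table, with earlier results of these data known. Each of the 9 matched 1 row. RNA was recovered from HEK293T cells, a human embryonic kidney line, through V5-tagged CNOT7, a nuclease subunit of the complex carrying a substitution that impairs catalysis. The series held 3 RIP libraries and 6 input libraries, of which 3 were from cultures that received 3 µg/mL doxycycline over 24 h and 3 from cultures that did not. The labels do not say whether the cells behind the RIP libraries had received doxycycline. All libraries were labelled as cytoplasmic RNA and were depleted of ribosomal RNA.

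The comparison of RIP with input asks which RNAs associate with the complex. The table gave values for the 3 RIP libraries and for 3 input libraries, whose names do not show whether doxycycline was given. The fold in the authors' deposited table matched the ratio of the means of these columns, with a median deviation of 0.00024 on the log2 scale over 12370 genes, so these were the inputs the authors compared. Libraries held between 37140622 and 40764899 reads in genes. RIP library 2 had no read for 14786 genes, against 6720 and 6398 in RIP libraries 1 and 3. Immunoprecipitates of untagged cells were not analysed here, and no nonspecific recovery was taken off the RIP values. In bulk libraries, the number of cells holding an RNA and the amount per cell cannot be told apart. Of 7 genes known to be expressed in HEK293-type cells, all had reads in every library. The inputs, although labelled cytoplasmic, also held reads of the nuclear RNAs MALAT1 and NEAT1. Of the markers of other cell types, ALB had 10.8, 0 and 0.78 normalized counts in RIP and 0 in each input, COL1A1 averaged 397 normalized counts in RIP and 469 in input, and PTPRC, CD3E and HBB were not analysed here.

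CCR4-NOT reaches its targets through RNA-binding adaptors, among them the PUMILIO proteins, the AU-rich element binding proteins and the microRNA machinery. Several of the 9 RNAs meet those adaptors. NORAD, an abundant RNA induced by DNA damage, carries many PUMILIO sites and holds PUMILIO proteins away from other transcripts. OIP5-AS1, also called cyrano, pairs with the microRNA miR-7 and directs its destruction. MALAT1 and NEAT1 stay in the nucleus, in speckles and paraspeckles, and KCNQ1OT1 is an antisense RNA that silences imprinted genes from the paternal chromosome. The 3' end of MALAT1, and of the long form of NEAT1, is made by RNase P cleavage and protected by a triple helix in place of a poly(A) tail, whereas the short form of NEAT1 is polyadenylated.

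The microRNAs tied to members of the group are shown because they name how those RNAs act: miR-7 is the partner of OIP5-AS1, and miR-675 is cut from H19 itself. Sequences are those of RefSeq for GRCh38.p14, 5' to 3', with the seed (bases 2 to 8) in capitals. The miR-675 hairpin gene lies inside the H19 gene, with miR-675-5p at chr11:1996800-1996822 and miR-675-3p at chr11:1996768-1996787, both on the minus strand. The copies of miR-7-5p from the genes MIR7-1 and MIR7-3 are encoded at chr9:83969811-83969834 (minus strand) and chr19:4770700-4770723 (plus strand). This list of copies may not be complete. The 3 seeds differ from one another.
hsa-miR-7-5p: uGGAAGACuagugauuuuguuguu
hsa-miR-675-5p: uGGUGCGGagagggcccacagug
hsa-miR-675-3p: cUGUAUGCccucaccgcuca

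Both cytoplasmic RNAs, NORAD and OIP5-AS1, were recovered above the compared inputs, and none of the 3 nuclear RNAs was. NORAD rose about 3-fold and OIP5-AS1 by 1.60-fold, while MALAT1 fell by 1.27 on the log2 scale and NEAT1 and KCNQ1OT1 passed no threshold. TUG1 rose and CRNDE fell among the RNAs reported in both compartments or elsewhere, and H19 had reads in RIP but none in the compared inputs. Against the derived mean of the 3 inputs outside the table, with no test, RIP was higher by 1.82 on the log2 scale for KCNQ1OT1. The same difference was 1.68 for NORAD, 0.45 for OIP5-AS1, 0.42 for NEAT1 and -0.016 for MALAT1. The 9 RNAs passed the filter of a mean of at least 10 normalized counts, H19 through the RIP libraries alone, so that it had to differ and is left out of the counts of calls. Of the other 8, 3 were called higher in RIP and 2 lower by limma on log2(normalized count + 1), at an adjusted p under 0.05. Over all 16765 tested genes the shares called were 22.4% higher and 21.2% lower, and 43.6% in either direction. Genes that passed the filter as H19 did were not taken out of these shares. In the authors' deposited table the same 3 had an adjusted p under 0.05 in the higher direction, where 20.6% of genes did, and the same 2 in the lower direction, where 19.9% did (40.5% in all). All RIP libraries lay above all inputs for 3 of the 8 (27.4% of tested genes) and below them for 3 (27.3%). The median difference over all tested genes was -0.043 on the log2 scale.

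**Figure D1:**
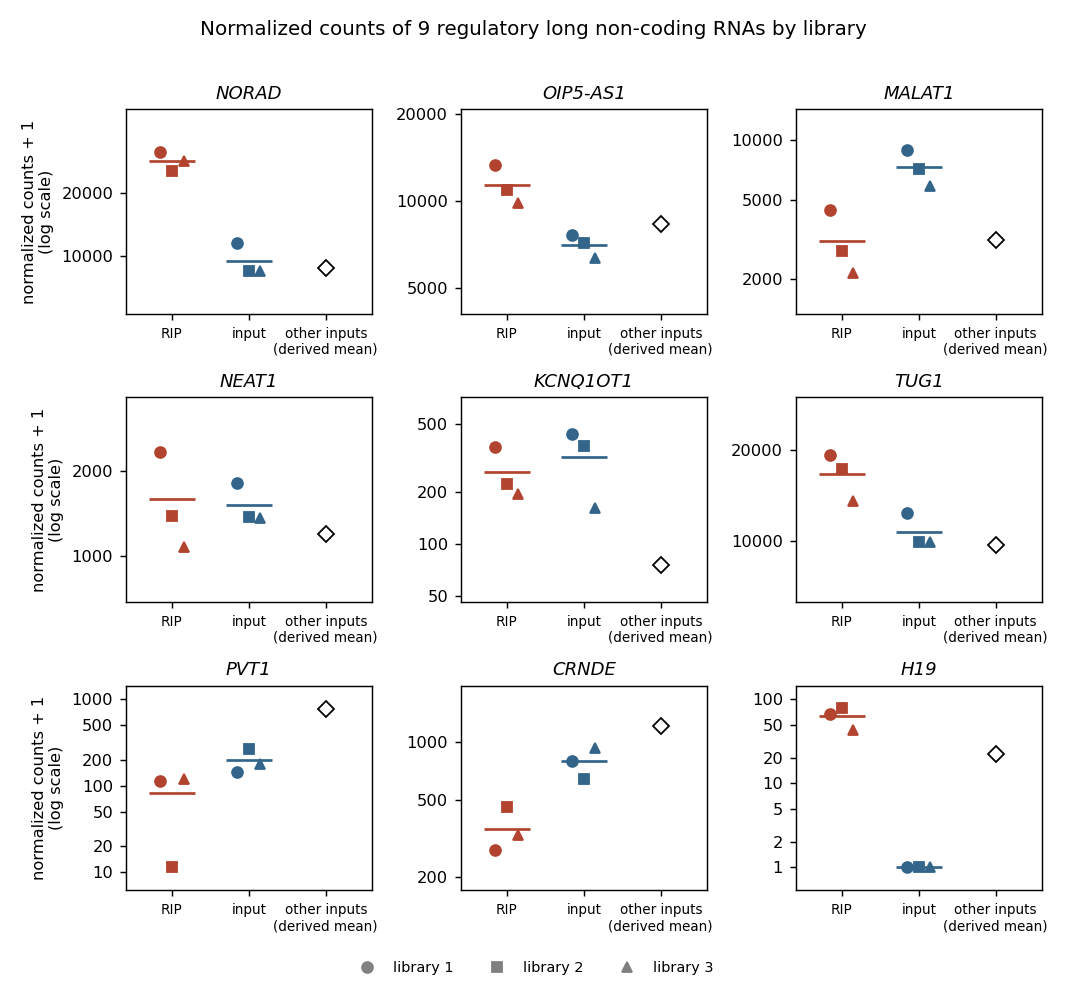
Normalized counts plus 1 on a log scale for each RNA in the 3 RIP libraries (red), the 3 input libraries of the table (blue) and, as an open diamond with no error, the derived mean of the other 3 inputs. Symbols mark the library number and lines the group means. The RIP points of NORAD, OIP5-AS1, TUG1 and H19 lie above all blue points, those of MALAT1, CRNDE and PVT1 below them.

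NORAD (ENSG00000260032) is a single-transcript gene on chromosome 20, 36045618 to 36050960 (RefSeq, GRCh38.p14), that overlaps no other annotated gene. It had 31141, 25286 and 28297 normalized counts in RIP, against 11477, 8478 and 8529.6 in input. Every RIP library held more than any input library, and the lowest RIP value was over the highest input value by a wide margin. The log2 difference was 1.58 (SE 0.14, limma adjusted p = 5.0e-06), above that of 92.3% of tested genes. The authors' deposited table gives 1.57 (SE 0.13). The adjusted p ran from 3.8e-31 in the authors' deposited table to 0.00014 in limma with 1 library left out.

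OIP5-AS1 (ENSG00000247556, chromosome 15, 41282697 to 41313338) had 13349.9, 10927 and 9862 normalized counts in RIP and 7674, 7149.6 and 6347 in input. The groups did not overlap, though the gap was narrower than for NORAD. OIP5-AS1 rose by a log2 difference of 0.68 (SE 0.14, limma adjusted p = 0.0014). The gene overlaps OIP5, which encodes a centromere protein, and with no strand setting given in the sources used here the reads of the pair cannot be told apart where they overlap. OIP5 itself averaged 321 normalized counts in RIP and 483 in input and had a log2 difference of -0.58 (limma adjusted p = 0.085).

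TUG1, whose RNA is found in nucleus and cytoplasm and is annotated as protein coding in the table, also rose. TUG1 (ENSG00000253352, chromosome 22, 30969265 to 30979395) had 19298, 17336 and 13556 normalized counts in RIP and 12353, 9919.9 and 9909.75 in input. No input library reached the lowest RIP library, and the distance between them was small. Its log2 difference was 0.63 (SE 0.15, limma adjusted p = 0.0043), above that of 72.5% of tested genes, where OIP5-AS1 stood above 73.9%.

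Among the nuclear RNAs, MALAT1 was the one that fell. MALAT1 (ENSG00000251562, chromosome 11, 65497738 to 65506516) had 4459.9, 2779 and 2146 normalized counts in RIP and 8907, 7147 and 5875 in input. All RIP libraries lay below all input libraries, and RIP varied more (coefficient of variation 38.2%) than input (20.8%). RIP and input differed by -1.27 on the log2 scale (SE 0.23, limma adjusted p = 0.00078), and the authors' deposited table gives -1.22 (SE 0.35). The size depends on which inputs are compared. The 3 inputs outside the table had a derived mean of 3163 normalized counts, 0.433 times that of the compared inputs, and the RIP mean of 3128 differed from it by -0.016 on the log2 scale, a value with no test. MALAT1 overlaps the antisense gene TALAM1, which averaged 2.41 normalized counts in RIP and 14.2 in input.

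NEAT1 (ENSG00000245532, chromosome 11, 65422798 to 65445540) ends 52.2 kb before MALAT1 begins and showed no call in either direction. It had 2314, 1384 and 1076 normalized counts in RIP and 1804, 1369 and 1359 in input. RIP library 1 lay above every input, RIP library 3 below every input, and RIP library 2 among them. The log2 difference was 0.013 (SE 0.24, 95% confidence interval -0.52 to 0.55, limma adjusted p = 0.97). A 2-fold change in either direction lies outside this interval, which holds for the authors' size factors and the compared inputs only. Scaling by total counts gave a log2 difference of 0.51 (not called by limma), for which no interval is given here.

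KCNQ1OT1 (ENSG00000269821, chromosome 11, 2608328 to 2699994) had 368, 222 and 194 normalized counts in RIP and 433, 369 and 162 in input. The groups overlapped, and input library 3 was the lowest of the 6. Its log2 difference was -0.24 (SE 0.41, 95% confidence interval -1.12 to 0.65, limma adjusted p = 0.67), which leaves a change of 2-fold downward within the interval. The inputs outside the table had a derived mean of 74.2 normalized counts, lower than any library of the comparison. The RIP mean differed from it by 1.82 on the log2 scale, a value with no test, so the direction depends on which inputs are compared. The gene lies inside the span of KCNQ1, a potassium channel gene read from the opposite strand, and KCNQ1 averaged 86.5 normalized counts in RIP and 118 in input.

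The low-abundance members differed from each other as well. CRNDE (ENSG00000245694, chromosome 16, 54918863 to 54928886), an RNA raised in colorectal tumours, had 273, 459.8 and 328 normalized counts in RIP and 802, 646 and 938 in input. Every RIP value was below every input value. CRNDE fell, with a log2 difference of -1.18 (SE 0.25, limma adjusted p = 0.0023). The neighbouring homeobox gene IRX5 went the other way, with 721 ± 220.3 in RIP and 225 ± 55.2 in input (SD, n = 3) and a log2 difference of 1.66 (limma adjusted p = 0.00069).

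PVT1 (ENSG00000249859, chromosome 8, 127794524 to 128101256), which lies next to MYC, had 113, 10.4 and 118 normalized counts in RIP and 142, 264 and 179 in input. The RIP values lay below the inputs, and RIP library 2, with 14 reads against 137 and 151 in the others, was far the lowest. PVT1 had a log2 difference of -1.82 (SE 0.80, limma adjusted p = 0.087), and -0.70 without RIP library 2 (limma adjusted p = 0.11). It was called without RIP library 1 (-2.36, limma adjusted p = 0.031) or without RIP library 3 (-2.39, limma adjusted p = 0.031). The oncogene MYC itself rose, with 35619 ± 1294 normalized counts in RIP and 12844 ± 541 in input (SD, n = 3), a log2 difference of 1.47 (limma adjusted p = 1.5e-06).

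H19 (ENSG00000130600, chromosome 11, 1995176 to 2001266), an imprinted RNA of fetal tissue read from the maternal copy, had 80, 104 and 54 reads in RIP and 0 in each of the 3 inputs of the table. In normalized counts these were 66.2, 77.5 and 42.3 in RIP. Taking 3 reads per library as the floor for a count of 0, H19 was at least 18.5-fold higher in RIP, a description with no test. Fitted log2 values for a gene with no input read depend on the pseudocount and are no bound. The inputs outside the table had a derived mean of 21.2 normalized counts, and against these the RIP mean differed by 1.55 on the log2 scale. H19 lies within the span of MRPL23, a mitochondrial ribosomal protein gene with 4.27 normalized counts in RIP and 14.1 in input, and reads of the pair may not be separable. The imprinted neighbour IGF2 averaged 42.8 normalized counts in RIP and 56.7 in input (limma adjusted p = 0.65).

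**Figure D2:**
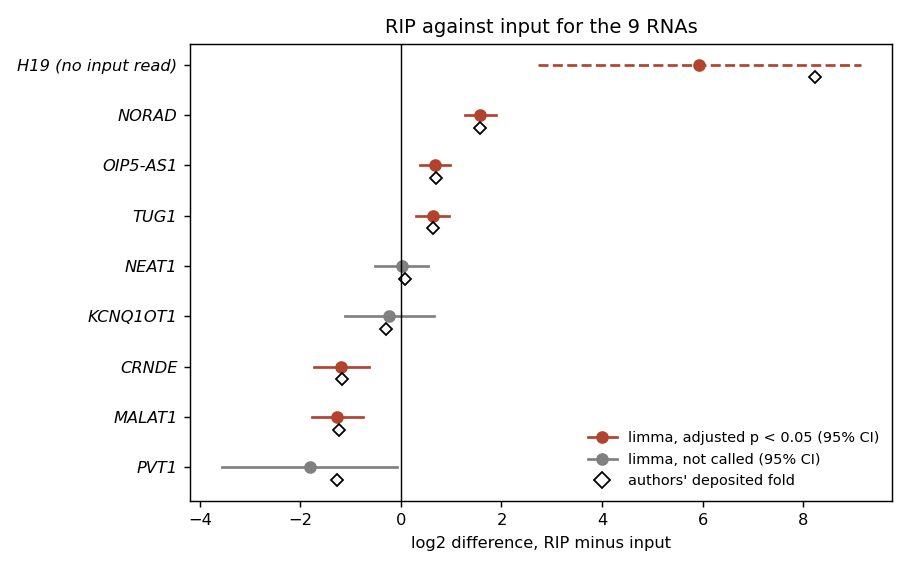
Log2 difference of RIP minus input for each RNA, with 95% confidence intervals from limma (red where the adjusted p was under 0.05, grey otherwise) and the authors' deposited fold as open diamonds. NORAD (1.58), OIP5-AS1 (0.68) and TUG1 (0.63) lie right of 0 and MALAT1 (-1.27) and CRNDE (-1.18) left of it. The position of H19 (dashed) rests on the pseudocount, since the compared inputs held no read.

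The contrast between cytoplasmic and nuclear members was also measured within each library, as the ratio of their normalized counts. Such a ratio depends on the lengths of both RNAs, but its change between RIP and input does not depend on how libraries are scaled. NORAD over MALAT1 was 6.98, 9.09 and 13.2 in RIP and 1.29, 1.19 and 1.45 in input, a difference of 2.85 on the log2 scale or 7.23-fold. OIP5-AS1 over MALAT1 was 2.99, 3.93 and 4.59 in RIP and 0.862, 1.0003 and 1.08 in input, a difference of 1.95. The RIP ratios were above all input ratios for both.

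Against NEAT1 the contrast was smaller. NORAD over NEAT1 was 13.4, 18.3 and 26.3 in RIP and 6.36, 6.19 and 6.27 in input, so the input ratios were nearly equal. OIP5-AS1 over NEAT1 was 5.77, 7.89 and 9.16 in RIP and 4.25, 5.22 and 4.67 in input, a log2 difference of 0.67. Against KCNQ1OT1, the NORAD ratio differed by 1.82 on the log2 scale without overlap, and the OIP5-AS1 ratio by 0.92 with overlap. Of the 6 ratios, 5 did not overlap between RIP and input, each with an exact two-sided permutation p = 0.10 (0.12 after Benjamini-Hochberg adjustment over the 6), the smallest that 3 against 3 libraries allow. The share of other gene pairs without overlap is not given here. Among single tested genes, 27.4% had all RIP libraries above all inputs and 27.3% below. The 6 ratios reuse the same RNAs, so they are independent neither of each other nor of the differences given above for each RNA. The OIP5-AS1 to KCNQ1OT1 ratio had an exact permutation p = 0.20. All 6 ratios rest on the compared inputs. Against the derived mean of the inputs outside the table, RIP differed by 1.68 on the log2 scale for NORAD and 0.45 for OIP5-AS1. The same difference was 1.82 for KCNQ1OT1, 0.42 for NEAT1 and -0.016 for MALAT1, all with no test. On those inputs neither cytoplasmic RNA rose more than KCNQ1OT1.

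The nuclear neighbours MALAT1 and NEAT1 were compared in the same way after their values had been seen. MALAT1 over NEAT1 was 1.93, 2.01 and 1.99 in RIP and 4.94, 5.22 and 4.32 in input. The ratio was close to constant among the RIP libraries (SD 0.031 on the log2 scale) although both RNAs varied there by about 40% around their means. RIP and input differed by -1.28 on the log2 scale, with an exact two-sided permutation p = 0.10, again the smallest possible. No RIP ratio overlapped an input ratio.

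**Figure D3:**
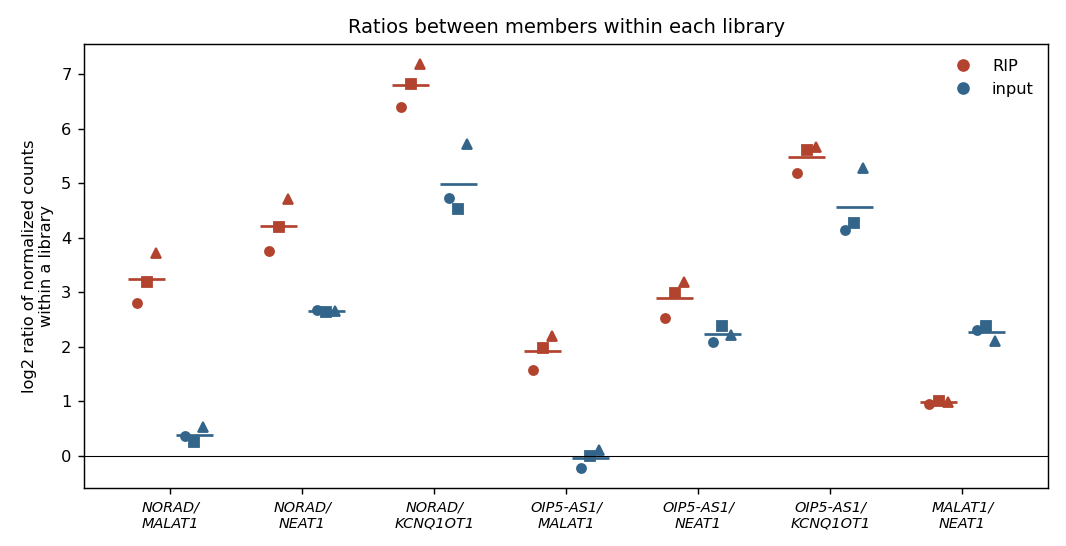
Log2 ratios of normalized counts between pairs of members within each library, with RIP (red) left of input (blue), symbols for library numbers and lines at the means. The NORAD to MALAT1 ratio shows the widest separation (2.85) and the OIP5-AS1 to KCNQ1OT1 ratio overlaps, while MALAT1 over NEAT1 is lower in RIP (-1.28).

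Levels of different RNAs can be set side by side only per length. NORAD, MALAT1, NEAT1 and KCNQ1OT1 are largely unspliced, so the gene span stands in for their length. The values per kilobase of span were 5286 ± 548 in RIP and 1777 ± 321 in input for NORAD (SD, n = 3). MALAT1 had 356 ± 136 in RIP and 833 ± 173 in input, and NEAT1 had 69.99 ± 28.3 and 66.4 ± 11.2 in the same groups. KCNQ1OT1 was the lowest, with 2.85 ± 1.02 in RIP and 3.50 ± 1.55 in input. Per span, NORAD was highest and KCNQ1OT1 lowest in RIP and in input, with no overlap with the other RNAs. The span of NEAT1 is that of its long form, and any reads of the short form would raise its value per kilobase, so its place beside MALAT1 is not settled.

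Of the 9 members, 6 (NORAD, OIP5-AS1, MALAT1, NEAT1, KCNQ1OT1 and TUG1) had their highest RIP value in RIP library 1 and their highest input value in input library 1. The share of all tested genes with this pattern is not given here, so it cannot be read as a trait of these RNAs. Over 12370 genes, deviations of RIP library 1 and input library 1 correlated at 0.25. The cause was not tested. Without RIP library 1 the log2 difference of NEAT1 was -0.29 and that of MALAT1 -1.56, and neither call changed. Mitochondrially encoded RNA made up 0.931% to 1.12% of normalized counts in RIP and 18.6% to 26.6% in input. Scaling by total counts, which takes in this share, raised the median of all tested genes by 0.49 on the log2 scale and gave 6158 genes higher and 1655 lower, against 3758 and 3550. On that scale NEAT1 had 0.51 and KCNQ1OT1 0.26, neither called, and MALAT1 (-0.78) and CRNDE (-0.69) were still called lower by limma (adjusted p = 0.016 and 0.040).

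The members can be read against their class. Of 2643 tested genes of biotype lncRNA, 9.38% were called higher and 1.82% lower, and of 13367 protein-coding genes 26% and 25.3% (51.3% in all; 11.2% of lncRNA genes in all). These shares, and the medians and range that follow, keep any gene that, like H19, passed the filter through the RIP libraries alone. How many such genes there were is not given here. Whether they or abundance play a part in these shares was not tested. The median difference was 0.18 on the log2 scale for lncRNA genes and -0.050 for protein-coding genes. NORAD, at 1.58, lay inside the 5th to 95th percentile of lncRNA genes, -2.37 to 2.85. That range covers lncRNA genes of any level that passed the filter, and none was drawn for genes as abundant as NORAD.

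**Figure D4:**
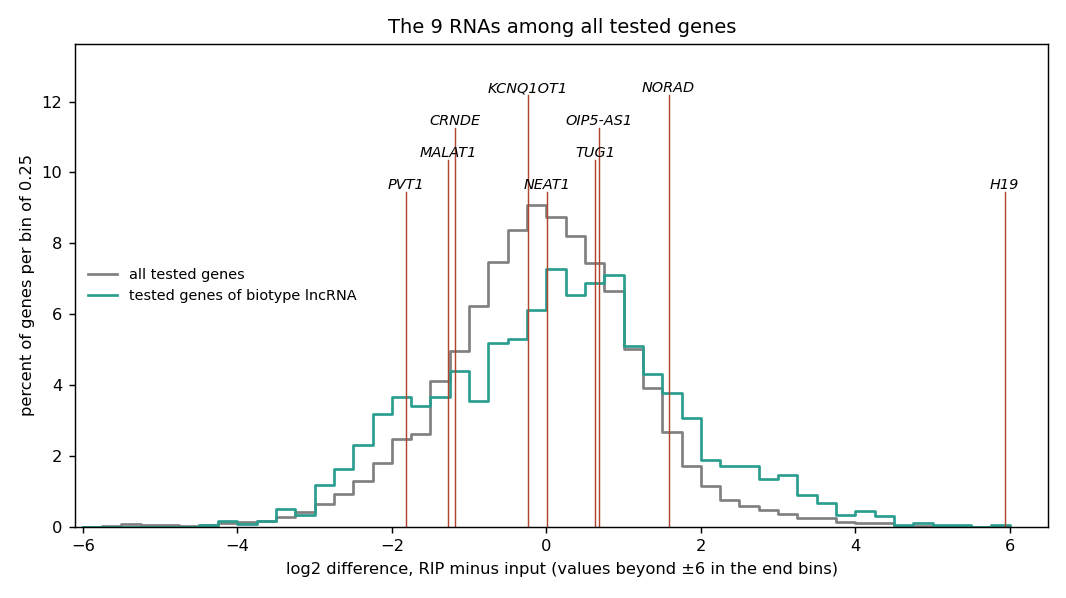
Distribution of the log2 difference of RIP minus input over all 16765 tested genes (grey) and the 2643 of biotype lncRNA (green), as the percent of genes per bin, with a red line for each of the 9 RNAs. All but H19 lie between the 5th and 95th percentiles of both.

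A list of 60 other regulatory non-coding RNAs was examined for comparison. Of these, 48 had a row and 40 were tested, with 6 called higher, 9 lower and 25 not called, and a median log2 difference of -0.074. Of all tested genes 22.4% were called higher and 21.2% lower, and of tested genes of biotype lncRNA 9.38% and 1.82%. The list was not matched in level to either set of genes. The smallest p-values were those of RMRP, the RNA of RNase MRP, at -2.78 and GAS5, a host of small nucleolar RNAs, at -1.81 (limma adjusted p = 1.6e-07 and 1.7e-05). DANCR, also a small nucleolar RNA host, had -1.36, and HOTAIR, an antisense RNA of the HOXC cluster, had 1.59 (limma adjusted p = 0.00016 and 0.00042). RMRP averaged 5793 ± 1121 normalized counts in RIP and 39298 ± 879 in input (SD, n = 3), a larger drop than in any of the 9 members. The small nuclear and nucleolar RNAs RNU4ATAC and SNORD3A also fell, with log2 differences of -4.19 and -2.40 (limma adjusted p = 0.012 and 0.0011). RNU4ATAC had 13.2, 0 and 37.6 normalized counts in RIP and 109, 162 and 186 in input. The size of its fall therefore rests partly on the pseudocount.

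The mRNAs of proteins that bind or meet these RNAs were listed as well. Of 23 such genes, 4 were called higher and 11 lower by limma, where 26% and 25.3% of protein-coding genes were. PUM2, whose protein NORAD binds, averaged 15931 ± 1375 normalized counts in RIP and 6732 ± 977 in input (SD, n = 3). It rose by 1.25 on the log2 scale (limma adjusted p = 1.4e-05). RBMX, another NORAD-binding protein, and NONO, a paraspeckle protein that binds NEAT1, fell, with -1.25 and -1.07 (limma adjusted p = 3.0e-06 and 1.5e-05). Of 15 neighbouring or overlapping genes, 14 were tested, with 7 called higher and 3 lower, again where 22.4% and 21.2% of all tested genes were. After MYC, the smallest p-values were those of CPNE1 near NORAD (-1.08), CHP1 near OIP5-AS1 (-0.86) and PRR14L near TUG1 (0.88), with limma adjusted p = 7.9e-05, 0.00016 and 0.00039. EPB41L1 near NORAD, the third gene called lower (-0.54, limma adjusted p = 0.0062), is named after its value was seen.

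The genes whose values over the 6 libraries most resembled those of 2 members were found among 12369 genes with a mean of at least 100 normalized counts. The measure was the root mean square difference of log2 profiles, each centred on its own mean. For NORAD these were ATXN7 (0.045), a subunit of a histone acetyltransferase complex, the F-box gene FBXO34 (0.052) and the zinc finger gene ZSCAN12 (0.076). They had log2 differences of 1.54, 1.54 and 1.63. For MALAT1 they were CCDC18 (0.12), the cilium motor gene DYNC2H1 (0.13) and R3HDM1 (0.18), with log2 differences of -1.31, -1.20 and -1.12. All 6 are protein-coding, and the profiles were compared without regard to length or level. Because the profiles span RIP and input, log2 differences near those of NORAD and MALAT1 follow from the selection.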

How the data were processed

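The members and lists were chosen with earlier results of these data known. Per the submitters' processing notes, reads were processed with STAR, featureCounts and DESeq2 on GRCh38. Neither versions, annotation release nor strand setting were stated there. The deposited signal consists of gene counts scaled by the authors with 1 size factor per library. All values (100%) were whole multiples of 1 read within 0.01, so whole reads were recovered. The authors' log2 fold, its SE, their Wald score and their p-value were deposited beside them and are named as theirs.

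The main test was limma 3.58.1 (R 4.3.3), lmFit and eBayes with trend, on log2(value + 1) for 16765 genes with a mean of at least 10, with Benjamini-Hochberg adjustment over all of them. It was checked on simulated counts with the same dispersion for every gene, a setting that these libraries need not share. edgeR 4.0.16 found 3714 genes higher and 3435 lower on the recovered reads. DESeq2 1.42.0, other scalings, pseudocounts, filters and leaving out each library were alternatives. Input column names do not give the doxycycline state, so inputs formed 1 group. The mean of the 3 inputs outside the table was derived by taking the deposited mean as one over all 9 libraries: 9 times it was below the sum of the 6 columns for 0 genes and equal to it for 5814. It has no SD.

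Reads carried no molecular identifiers and so do not count molecules one by one, and floors cover counting error only. Chi-square per degree of freedom between libraries of a group was 29.9 to 82.8, far above sampling noise. No label ties replicates to separate cultures, and p-values therefore reflect only how these libraries vary, which may be technical. The rule for named genes was all members, up to 4 genes of smallest p in each list, and the 3 most alike to NORAD and MALAT1. A gene that this rule selects is not reported here. IRX5, OIP5, KCNQ1 and IGF2 were named to describe a member. Sequence motifs were not analysed here. Python 3.11.15 was used for tables and figures.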

Additional observations from a re-analysis of the deposited data

Results flagged for a closer look

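In the 3 input libraries outside the table, PVT1 had a derived mean of 776 normalized counts, above the highest of the compared inputs (264) and the RIP mean of 80.7. H19 had a derived mean of 21.2 normalized counts in the same libraries, where each compared input had no read and RIP averaged 62.0. Both stand out because they are signals in libraries that the comparison did not use. Whether they follow doxycycline was not tested, since the columns do not give it.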

How the results depend on the processing

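NORAD, OIP5-AS1, TUG1, MALAT1 and CRNDE kept their direction and their limma, edgeR or DESeq2 call under every alternative that gave a test. With the column number as a replicate block, limma called 4053 genes higher and 3925 lower and changed no call of a member. Deviations of same-numbered RIP and input columns correlated at 0.25, 0.0025 and 0.24 over 12370 genes. Columns of different number correlated at -0.26 to 0.026. Every RIP column correlated best with its own number, but input 2 correlated best with RIP 3 (0.026). Deviations were taken from each group's own mean, so these correlations are not independent of each other. They show some variation shared along the difference between columns numbered 1 and 3 and little for those numbered 2. No label says why. Under total-count scaling 6158 genes were called higher and 1655 lower, against 3758 and 3550 (78.8% against 51.4% of calls being higher). Under it KCNQ1OT1 turned to 0.26 (not called), the other non-coding RNAs gave 10 higher and 4 lower, and the partner mRNAs 8 and 5. With all 6 inputs as 1 group, an alternative added after seeing the data, the log2 value of H19 was 2.55, of KCNQ1OT1 0.40, of MALAT1 -0.74, of PVT1 -2.59 and of CRNDE -1.51. Leaving out each library gave -0.29 to 0.26 for NEAT1, -0.67 to 0.039 for KCNQ1OT1 and -2.39 to -0.70 for PVT1, with calls for PVT1 as given above. For H19 it gave 5.75 to 6.18, not called without RIP library 1. This range rests on the pseudocount, with 6.92 at a pseudocount of 0.5 and 3.10 at 8. Neither the range nor the calls are therefore a check on H19. H19 had no value at a mean of at least 100. Depth limits PVT1 and H19, with 14 to 151 reads per RIP library.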
